A study of Mus musculus with 8 samples.

Results

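Regulators of G protein signalling (RGS proteins) are described here through 8 genes, Rgs1, Rgs2, Rgs3, Rgs5, Rgs10, Rgs14, Rgs18 and Rgs19, out of 17097 mouse genes with a probe set of their own. They were taken as every probe set annotated to exactly 1 of these symbols, 18 probe sets in all, and each gene is represented by the probe set with the highest mean over the arrays. The genes were chosen with the values of this same comparison known, so their levels are given as a description, with no test. All 8 passed the filter on low values that left 12250 genes for testing, although 3 of them stayed near the bottom of the scale.

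RGS proteins end signalling by heterotrimeric G proteins. A receptor bound by its ligand loads the G protein alpha subunit with GTP, and the RGS domain speeds the hydrolysis of that GTP, after which alpha and the beta-gamma pair join again and fall silent. In blood cells they set how strongly and for how long chemokine, lipid and nucleotide receptors signal. Rgs1, Rgs2, Rgs5 and Rgs18 are short proteins with little beside this domain, and Rgs3 is a longer relative. Rgs10 and Rgs14 belong to another branch of the family, and Rgs14 also carries Ras-binding and GoLoco parts. Rgs19 binds inhibitory alpha subunits and belongs to a further branch.

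The arrays hold total RNA of untreated mouse acute myeloid leukaemia (AML) cell lines grown with serum and the cytokine IL-3. The 4 arrays labelled Trib1 hi come from cells labelled as expressing both Hoxa9 and Trib1, and the 4 labelled Trib1 null from cells labelled as expressing Hoxa9; per the labels the leukaemia cells of both arose in mice homozygous for a Trib1 knock-out. The labels do not state how either gene was introduced or from which promoter it is driven, how many clones a group holds, or whether arrays of a group are separate cultures, so spreads may be technical. The comparison, by the labels, is between Hoxa9 with Trib1 and Hoxa9 without it. Each level is a deposited MAS5 intensity, a linear value scaled per array, and means carry the SD over n = 4 arrays per group with the arrays labelled Trib1 hi first.

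The groups may differ by more than Trib1. The Trib1 probe set read 5.92 to 122 in the arrays labelled Trib1 hi and 206 to 304 in those labelled Trib1 null, against the label but near background, and Hoxa9, which both groups are labelled to express, read 10.0 to 391 against 969 to 1075. Xist, which silences an X chromosome, read at most 102 against at least 8286. Each direction below is therefore that of the labels, and a difference between lines cannot be told apart from one made by Trib1. Array Trib1 hi 3 stood apart: its median intensity was 68.3 against 3.71 to 9.56 on the other 7, and its 95th percentile, at 3733, was the lowest. The 75th percentile also differed between the groups. It was 17.5, 15.5 and 97.3 on Trib1 hi 1, 2 and 4, and 422 on Trib1 hi 3. On the arrays labelled Trib1 null it was 223 to 385. The part of this shift below 500 in the dim values and in the counts of lower genes was not tested. Where both groups lay below 500 no fold is given. Other folds were computed on the log2 scale after raising lower signals to 500, so that they are ratios of geometric means and can differ from the ratio of the arithmetic means printed beside them. They are written "at least" where 1 group lay below that level on some or all of its arrays. Of 11 myeloid cell markers, all 11 exceeded 500 on every array of a group, among them Ptprc, the leukocyte surface phosphatase CD45, at 12539 ± 1998 against 13069 ± 1303. By limma 3 of the 11 rose and 4 fell, or 63.6% called against 30.8% of all tested genes. The genes behind these counts are named after their values were seen. Mpo, the myeloperoxidase of granulocyte precursors, rose at least 10.3-fold (5201 ± 755 against 2.92 ± 0.791, adjusted p = 4.69e-14). Elane, neutrophil elastase, rose 5.58-fold (adjusted p = 4.17e-17), and Cebpa, a transcription factor of granulocyte precursors, 1.80-fold (adjusted p = 1.62e-07). Itgam, the integrin CD11b, fell 3.08-fold (adjusted p = 1.04e-15), and Csf3r, the G-CSF receptor, at least 1.65-fold (adjusted p = 0.000130). Spi1, the myeloid transcription factor PU.1, fell at least 1.61-fold (567 ± 217 against 969.9 ± 112, adjusted p = 0.00121), and Lyz2, lysozyme, 1.47-fold (adjusted p = 0.00578); both calls were lost without a variance trend (0.0896 and 0.0592). The other markers of the list were not called. Prtn3 read 20317 ± 3232 against 18019 ± 777 (adjusted p = 0.512) and Ctsg 35775 ± 6185 against 36898 ± 3493 (adjusted p = 0.896). The limma fit gave adjusted p = 0.532 for Fcgr3 and 0.786 for Ptprc. With quantile normalization all 11 were called, 4 of them higher. The part of these myeloid marker differences in the RGS values below was not tested.

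The promoters of Rgs2 and Rgs5 are shown first, because these are the genes with the largest folds and they differed in opposite directions. Both lie on chromosome 1. Each sequence is the 250 bases before the annotated start, from RefSeq on GRCm38.p6, 5′ to 3′ on the gene's own strand, with matches to the motifs below in capitals. Rgs2 is chr1:144004150-144004399 on the minus strand and Rgs5 is chr1:169655251-169655500 on the plus strand.
Rgs2: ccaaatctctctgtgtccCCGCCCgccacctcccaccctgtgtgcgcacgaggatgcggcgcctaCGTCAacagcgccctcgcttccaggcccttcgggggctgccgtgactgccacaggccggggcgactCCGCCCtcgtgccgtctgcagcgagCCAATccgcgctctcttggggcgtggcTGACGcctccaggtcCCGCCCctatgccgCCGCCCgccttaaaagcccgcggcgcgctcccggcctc
Rgs5: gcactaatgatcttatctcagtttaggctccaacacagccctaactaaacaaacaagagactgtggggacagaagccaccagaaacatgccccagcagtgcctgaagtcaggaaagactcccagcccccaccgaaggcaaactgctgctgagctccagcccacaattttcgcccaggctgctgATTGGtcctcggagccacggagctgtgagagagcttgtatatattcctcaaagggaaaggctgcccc
The stretch before Rgs2 is 72.4% G or C and holds 30 CpG dinucleotides, more than 94.1% of the 32841 promoters searched. The stretch before Rgs5 is 53.6% G or C and holds 4 CpG dinucleotides, where the median promoter has 6.

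Both promoters have 1 CCAAT box (CCAAT, present in 33.9% of all promoters on either strand), 94 bases before the start of Rgs2 and 67 before that of Rgs5. The Rgs2 stretch also has 4 GC boxes (GGGCGG, in 32.7% of promoters) and 2 cAMP response half-sites (TGACG, in 17.8%), and the Rgs5 stretch has 0 of either. Neither holds the C/EBP core TTGCNNAA (9.57% of promoters), the C/EBP-ATF composite TGATGNAA (3.45%) or TATAAA (12.4%). The C/EBP core and the composite can overlap by some of their letters, and the half-site is part of the full cAMP response element. These are matches of letters in 1 window, without any measurement of binding. Of the other members, Rgs3, Rgs10 and Rgs19 had entries in the promoter table and Rgs1, Rgs14 and Rgs18 had none.

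Over the 8 genes, 5 exceeded 500 on every array of at least 1 group. Rgs5 and Rgs18 were higher in the arrays labelled Trib1 hi, Rgs2 and Rgs14 were lower, and Rgs19 overlapped between the groups. Thus 2 of 8 were higher and 2 of 8 lower without overlap at such signals, where 9.62% and 14.4% of all tested genes met the same conditions; since the genes were chosen from this contrast, nothing is read from those shares. The plot of the 8 genes by array shows the levels.

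**Figure D1:**
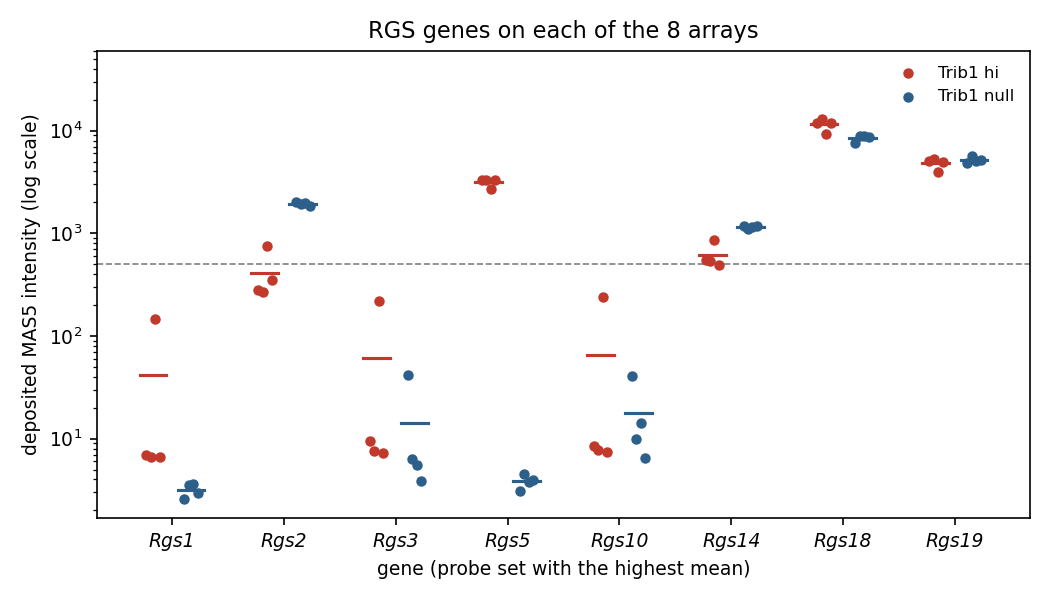
Deposited MAS5 intensity (log scale) of the 8 RGS genes, each by its brightest probe set; points are single arrays (red Trib1 hi, blue Trib1 null, 4 each), bars are group means and the dashed line marks 500. Rgs5 reads 2715 to 3330 on the Trib1 hi arrays and 4.55 or less on the others, whereas Rgs2 and Rgs14 lie lower and Rgs1, Rgs3 and Rgs10 stay below 500 on all 8 arrays.

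Rgs5, known from pericytes and vascular smooth muscle, where it restrains signals through Gq and Gi, showed the widest gap. It read 3292, 3307, 2715 and 3330 on Trib1 hi 1 to 4. On Trib1 null 1 to 4 it read 3.12, 4.55, 3.77 and 3.96. Every array labelled Trib1 hi was thus far above every array labelled Trib1 null, whose readings lie at the bottom of the scale, and only Trib1 hi 3 stood off from its group, below the others. Rgs5 was at least 6.30-fold higher (3161 ± 298 against 3.85 ± 0.591), and at least 6.62-fold without Trib1 hi 3. Its mean without that array was 3309.6 ± 19.2.

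The other 3 probe sets of Rgs5 read far less. The brightest of them gave 321, 242, 679 and 328 in the arrays labelled Trib1 hi and 3.50 to 4.22 in the others. The remaining pair reached 279 and 198 at most, in both cases on Trib1 hi 3. All 4 probe sets placed the Trib1 hi arrays above the Trib1 null arrays without overlap, but these 3 lay below 500 except for 1 reading, in the range where arrays differ. Averaged over all 4 probe sets, the floored log2 difference was 0.69, against 2.66 for the brightest.

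The cell types in which Rgs5 is best known were checked by their markers. Of 6 pericyte and smooth muscle markers measured, 5 lay below 500 on all 8 arrays, among them the receptor Pdgfrb. Acta2, smooth muscle actin, named after its value was seen, was the exception and was lower in the arrays labelled Trib1 hi, at 548 ± 173 against 2695 ± 49.7. Its limma call (adjusted p = 5.49e-14) was lost when log2 values were averaged over its probe sets (0.161). The summed level of the list was 355 to 1089 in the arrays labelled Trib1 hi and 2708 to 2924 in the others. Of 9 endothelial and fibroblast markers, 8 stayed below 500 on all arrays; the exception, Pecam1, also named after its value was seen, was lower in the arrays labelled Trib1 hi (1610.2 ± 109.6 against 2231 ± 141), and the list summed to 1646 to 1753 against 2121 to 2371.

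Rgs18, abundant in platelets and megakaryocytes and found in myeloid cells, acts on Gi and Gq. It read 11877, 13065, 9368 and 11776 on Trib1 hi 1 to 4. On Trib1 null 1 to 4 it read 7530.5, 8964, 8860 and 8712. The groups did not overlap, but the lowest Trib1 hi array, Trib1 hi 3, lay close above the highest of the other group. Rgs18 was 1.35-fold higher (11521 ± 1550.1 against 8516 ± 665), and 1.44-fold without Trib1 hi 3.

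The second Rgs18 probe set gave the same direction on every array. It read 8229, 8332, 6189 and 8230.0 against 4970, 5490, 5221 and 5265, which is 1.47-fold, or 1.58-fold without Trib1 hi 3. Trib1 hi 3 again read lowest in its group, as did the bright added control cre, at 17227 on that array against 25125 to 25751 on the other 3. Of 9 megakaryocyte and platelet markers, 8 were below 500 on all arrays and Itga2b, an integrin subunit of platelets, exceeded it on 1 array of 8. In RNA of whole cultures, fewer cells of a type and less RNA per cell cannot be told apart. The summed level of that list was 61.9 to 1197 in the arrays labelled Trib1 hi and 135 to 463 in the others.

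Rgs19, also called GAIP, a partner of inhibitory alpha subunits on membrane vesicles, was the member whose groups overlapped at high signal. On Trib1 hi 1 to 4 it gave 5073, 5258, 3994 and 5003. It read 4837, 5659, 5074 and 5166 on those labelled Trib1 null. The lowest reading again came from Trib1 hi 3, and the other 3 of its group fell inside the range of the Trib1 null arrays. The means were 4832 ± 569 and 5184 ± 346, a fold of 1.08 towards Trib1 null, and 1.01 without Trib1 hi 3. The second Rgs19 probe set, at 4794 ± 555 against 4943 ± 316, overlapped as well.

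**Figure D2:**
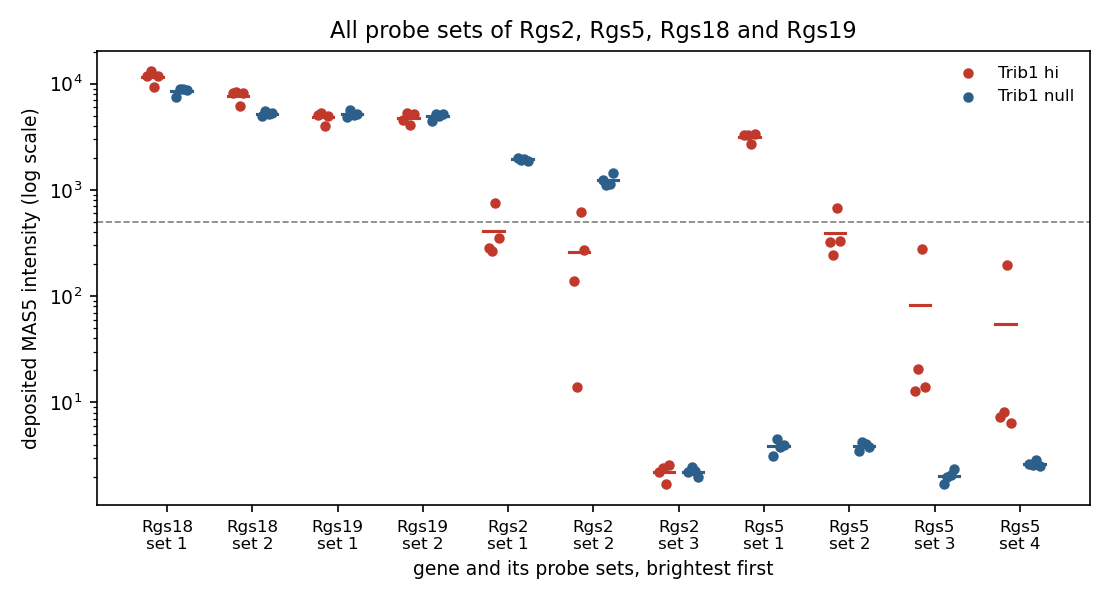
Deposited MAS5 intensity (log scale) of every probe set of Rgs2, Rgs5, Rgs18 and Rgs19, brightest first; points are single arrays, bars group means and the dashed line 500. Both Rgs18 sets are higher in Trib1 hi (1.35-fold and 1.47-fold), both Rgs19 sets overlap, the first 2 Rgs2 sets are lower, and Rgs5 exceeds 500 on all Trib1 hi arrays in set 1 only.

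A ratio taken within each array is free of that array's scale. Rgs18 over Rgs19, from their brighter probe sets, was 2.34, 2.48, 2.35 and 2.35 on the arrays labelled Trib1 hi. It was 1.56, 1.58, 1.75 and 1.69 on those labelled Trib1 null. On this ratio Trib1 hi 3 no longer stood apart, and the groups did not overlap, at 2.38 ± 0.0692 against 1.64 ± 0.0883. The other probe sets of both genes gave 1.62 ± 0.122 against 1.06 ± 0.0380. Both genes were taken with their values known, so the ratio only describes their unequal differences between the groups. By how much each of them changed was not tested.

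**Figure D3:**
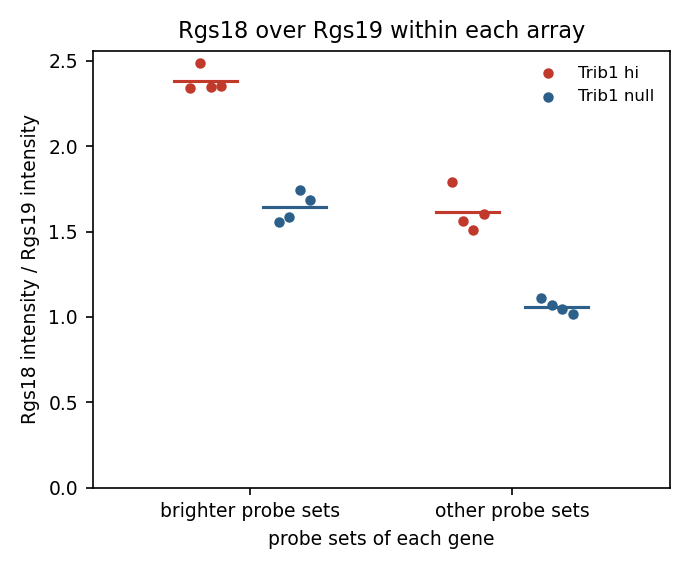
Intensity of Rgs18 divided by that of Rgs19 on the same array (linear axis from 0), for the brighter probe sets of both genes and for the other ones; points are arrays and bars group means. The Trib1 hi arrays lie between 2.34 and 2.48 and the Trib1 null arrays between 1.56 and 1.75 in the first pair, with Trib1 hi 3 inside its group.

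Rgs2, which prefers Gq and is induced by many stimuli, was the member with the largest decrease. It read 282, 266, 746 and 352 on Trib1 hi 1 to 4. On Trib1 null 1 to 4 it read 1997, 1916, 1973 and 1855. No array of either group reached the range of the other, and the highest of the lower group was Trib1 hi 3, on which dim signals were raised. Rgs2 was at least 3.50-fold lower (412 ± 226 against 1935 ± 63.1), and at least 3.87-fold without Trib1 hi 3.

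A second Rgs2 probe set read 139, 14, 614 and 269 against 1238, 1123, 1130.1 and 1436. Its groups did not overlap either, and the fold was at least 2.33. The third stayed between 1.69 and 2.57 on all 8 arrays and carries no usable signal. An added control transcript, dap, was itself lower in the arrays labelled Trib1 hi: with the same floor its 6 probe sets differed by -0.39 to -0.79 on the log2 scale, and without a floor by -0.50 to -1.27. Some controls that lay below 500 on every array differed by more without a floor. The r2 probe sets of the control bioB gave -2.54 to -2.72 and the background control GC25 gave -2.93. The other controls examined, dap aside, gave -0.34 to 0.21. The difference of Rgs2 was -1.81 with the floor and -2.36 without it. The part of these control shifts in the Rgs2 value was not tested.

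Rgs14, which couples G protein alpha subunits with Ras and Rap signalling, gave 552, 534, 866 and 487 on Trib1 hi 1 to 4. It read 1169, 1092, 1146 and 1179 on those labelled Trib1 null. The groups did not overlap, and Trib1 hi 3 was again the array nearest the other group. By geometric means Rgs14 was at least 1.92-fold lower (609.8 ± 173 against 1146.5 ± 38.8), or at least 2.17-fold without Trib1 hi 3. The ratio of the arithmetic means was 1.88. With the floor the log2 difference was -0.94, and that of the dap probe set with nearly the same means (610 against 1073) was -0.79. The part of that shift in the Rgs14 value was not tested.

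Rgs1, Rgs3 and Rgs10 could not be compared. Rgs1, which damps chemokine receptor signals in lymphocytes, read 6.88, 6.66, 148 and 6.63 against 2.59, 3.56, 3.64 and 2.95. Rgs10, a small member abundant in microglia and platelets, read 8.52, 7.77, 238 and 7.44 against 41.2, 9.86, 14.1 and 6.50. Rgs3, whose longer isoforms also bind beta-gamma subunits, read 9.47, 7.55, 218 and 7.26 against 41.4, 6.26, 5.58 and 3.89.

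In all 3 the highest reading was that of Trib1 hi 3, and a background control, GC25, read 379 on that array against 11.4 to 15.1 on the other 3 of its group and 149 to 335 on the arrays labelled Trib1 null. Over the 18 probe sets of the family, 9 stayed below 500 everywhere, and 8 of these 9 were highest on Trib1 hi 3. The markers of B cells (6 measured) and of T and NK cells (7), in which Rgs1 is abundant, were all below 500 on every array, with summed levels of 18.4 to 266 against 15.5 to 67.6 and of 27.5 to 432 against 26.3 to 222.

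The remaining RGS proteins were also near background. Of 13 listed, 11 had a probe set and 7 passed the filter: Rgs4, Rgs8, Rgs9, Rgs11, Rgs12, Rgs17 and Rgs20. All 11 lay below 500 on every array. By limma with Benjamini-Hochberg adjustment 0 of the 7 passed the threshold, and 0 had an unadjusted p under 0.05, whereas 11.1% of all tested genes were called higher (1363) and 19.7% lower (2409). That split was 3354 and 3346 with quantile normalization. With it 3 of the 7 passed: Rgs8 lower (adjusted p = 1.42e-06), and Rgs12 (0.00705) and Rgs4 (0.0492) higher. The range over alternatives ended at 1.00 for each of them.

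Rgs2, Rgs13, Rgs1, Rgs21 and Rgs18 follow one another on chromosome 1 in the mouse assembly GRCm38.p6, with no other protein-coding gene between them, so that within this cluster Rgs2 was lower, Rgs18 higher and Rgs1 near background. Rgs5 and Rgs4 are direct neighbours further along the same chromosome, and Rgs4 read 90.5 or less on every array beside the Rgs5 values above. The nearest tested genes, up to 3 on each side of a member, made 35 genes in all, with Rgs1, Rgs2 and Rgs18 sharing the same ones. They included 3 higher and 10 lower, or 37.1% called, against 30.8% of all tested genes. Their median log2 difference was 0.11, against 0.04 over all genes. Without Trib1 hi 3 they included 7 higher; without Trib1 null 2, 3 or 4 they included 6 lower.

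Next to Rgs5, Mgst3, a microsomal glutathione transferase, fell at least 3.86-fold (adjusted p = 1.29e-12). Hsd17b7, an enzyme of cholesterol and steroid synthesis, read 322 ± 212 against 762 ± 88.3 (at least 1.43-fold, adjusted p = 0.000303), a call lost when log2 values were averaged over its probe sets (0.475) and without a variance trend (0.0604). Aldh9a1, an aldehyde dehydrogenase, fell 1.34-fold (adjusted p = 0.00142, 0.0888 without a variance trend). Beside the Rgs2 cluster Uchl5, a deubiquitinase of the proteasome, rose 1.56-fold (adjusted p = 1.32e-05; 0.295 on the average over probe sets). Pole3, a histone-fold subunit of DNA polymerase epsilon beside Rgs3, rose 1.43-fold (adjusted p = 0.000211; 0.0689 on that average). Lman2, a cargo receptor beside Rgs14 (1.30-fold lower, adjusted p = 0.0290), and Mcmbp, a partner of the replicative helicase beside Rgs10 (1.19-fold higher, adjusted p = 0.0419), lost their calls without Trib1 hi 1 (0.0708 and 0.0816) or without 4 and 6 other arrays in turn, with highest values of 0.136 and 0.141.

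The other parts of G protein signalling were read from lists of 145 measured genes, 116 of them tested, chosen for their role and without the 8 members. Of these, 12 rose and 31 fell in the arrays labelled Trib1 hi by limma, or 37.1% called against 30.8% of all tested genes, with a median log2 difference of -0.07 against 0.04. After quantile normalization 25 rose and 43 fell.

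Of the alpha subunits, on which RGS proteins act, 0 of 12 tested rose and 2 fell, Gnai2 and Gna14. That is 16.7% called against 30.8% of all tested genes. With quantile normalization 4 rose and 4 fell. Gna14, an alpha subunit of the Gq class, lay below 500 on all arrays, and its call (adjusted p = 0.00529) was lost with a floor of 500 (1.00). Gnas, the stimulatory subunit, read 2.99 or less on every array and did not pass the filter. That probe set carries no usable signal, so the level of Gnas is not known here. The brightest were inhibitory subunits: Gnai2 read 9015 ± 1440.3 against 11309.5 ± 929.9 with overlapping groups (adjusted p = 0.0328), and the call ended without Trib1 hi 4 (0.0677), without Trib1 null 2, 3 or 4 (0.107, 0.0756 and 0.0758), without a filter (0.0841), with a floor of 500 (0.139), on the average over probe sets (0.0859) and without a variance trend (0.184). Gnai3, the partner of Rgs19, read 10176 ± 1793 against 10647 ± 636 (adjusted p = 0.717, range over alternatives 0.000172 to 1.00). Of 13 beta and gamma subunits, 1 rose and 1 fell, or 15.4% called against 30.8% of all tested genes. With quantile normalization 2 rose and 5 fell. Gng2 rose at least 1.30-fold (667 ± 179 against 259 ± 49.8, adjusted p = 0.000246), and Gng12 fell 1.40-fold (3578 ± 703 against 4936 ± 289, adjusted p = 0.000864). Both calls ended with a floor of 500 (0.223 and 0.0675) and on the average over probe sets (0.639 and 0.644), and that of Gng12 also without a variance trend (0.0998).

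Proteins that handle alpha subunits in other ways changed in both directions. Of 8 tested, 2 rose and 1 fell, or 37.5% called against 30.8% of all tested genes. Gpsm2, a relative of Gpsm3 with GoLoco motifs, rose near background (394 ± 250.2 against 39.0 ± 57.4, adjusted p = 0.0129), a call lost at a floor of 500 (0.784) and when Trib1 hi 1, 2 or 4 was left out (0.0560, 0.0546 and 0.115). Gpsm3, whose GoLoco motifs hold inhibitory alpha subunits in their GDP form, read 601 ± 176 against 1991 ± 51.8, a 3.41-fold decrease (adjusted p = 9.26e-12). Ric8a, a chaperone that folds alpha subunits, rose 1.86-fold (2058 ± 169 against 1109.9 ± 129, adjusted p = 6.60e-08), which was lost on the average over probe sets (0.686). Of 9 proteins outside the family that carry an RGS-type domain, 4 fell and 0 rose, or 44.4% called against the same 30.8%. The sorting nexins Snx14 and Snx25 fell 2.33-fold (adjusted p = 3.12e-08) and, by geometric means, at least 1.85-fold (1.56e-05). Axin1, the scaffold of the beta-catenin destruction complex, fell 1.52-fold (844 ± 117 against 1276 ± 50.4, adjusted p = 0.000341; 0.877 on the average over probe sets).

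Kinases and arrestins switch receptors off, and of 5 tested 4 fell and 0 rose, or 80% called against 30.8% of all tested genes. Grk5, another receptor kinase, and Arrb1, beta-arrestin 1, were 2 of these 4 (adjusted p = 0.0132 and 0.00388), with means below 500 in both groups, and lost their calls with a floor of 500 (1.00 and 0.784); that of Grk5 was also lost without any 1 of the arrays labelled Trib1 null (0.0548 to 0.0747). Arrb2, beta-arrestin 2, fell 2.00-fold, from 1919 ± 63.9 to 965 ± 89.5 (adjusted p = 6.63e-09). Grk6, a receptor kinase of blood cells and the direct neighbour of Rgs14 among tested genes, fell 1.35-fold (1482 ± 88.7 against 1998 ± 49.9, adjusted p = 0.000705; 0.751 on the average over probe sets). Of 22 effectors, 9 fell and 0 rose, or 40.9% called against 30.8% of all tested genes. With quantile normalization 10 fell and 2 rose. Adcy9, Plcb2 and Pde4b, counted among the 9, lay below 500 on all arrays. Their calls were lost with a floor of 500. Adcy7, an adenylyl cyclase of blood cells, fell 2.76-fold (1033 ± 55.1 against 2851 ± 134, adjusted p = 1.03e-13), and Pde7a, which degrades cAMP, fell 2.60-fold (704 ± 91.0 against 1822 ± 101, adjusted p = 7.12e-11). Prkaca, a catalytic subunit of protein kinase A, fell 1.81-fold (adjusted p = 1.39e-08). Prex1, a Rac exchange factor that responds to beta-gamma, read 159 ± 209 against 827 ± 60.2 (at least 1.65-fold, adjusted p = 7.72e-05, 0.0645 without a variance trend). Pik3cg, the PI3K catalytic subunit activated by beta-gamma, fell 1.33-fold (adjusted p = 0.0153), a call lost without Trib1 hi 4 (0.0982) and without a variance trend (0.0786).

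Receptors went both ways, with 6 of 34 tested higher and 9 lower, or 44.1% called against 30.8% of all tested genes. With quantile normalization 8 were higher and 14 lower. Among the lower ones Cxcr2, S1pr2 and Ptger2 each exceeded 500 on at most 1 array, as did P2ry14 and F2r among the higher. The calls of these genes were lost with a floor of 500. Hcar2, the receptor for niacin and ketone bodies, fell at least 5.23-fold (441 ± 207 against 2872 ± 23.8, adjusted p = 1.12e-13). Ptger4, a prostaglandin E2 receptor, fell 2.58-fold (784 ± 146 against 1999 ± 87.2, adjusted p = 8.79e-11; 0.391 on the average over probe sets). Adgre5, the adhesion receptor CD97, fell 2.35-fold (adjusted p = 1.31e-12), and Ccr2, the receptor for CCL2, fell 2.15-fold (3819 ± 512 against 8169 ± 579, adjusted p = 2.08e-10). Gpr34, a receptor for lysophosphatidylserine, rose 2.66-fold, from 1163 ± 87.6 to 3102 ± 299 (adjusted p = 5.01e-13). S1pr4, a sphingosine 1-phosphate receptor named after its values were seen, rose 1.62-fold (adjusted p = 1.88e-06).

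**Figure D4:**
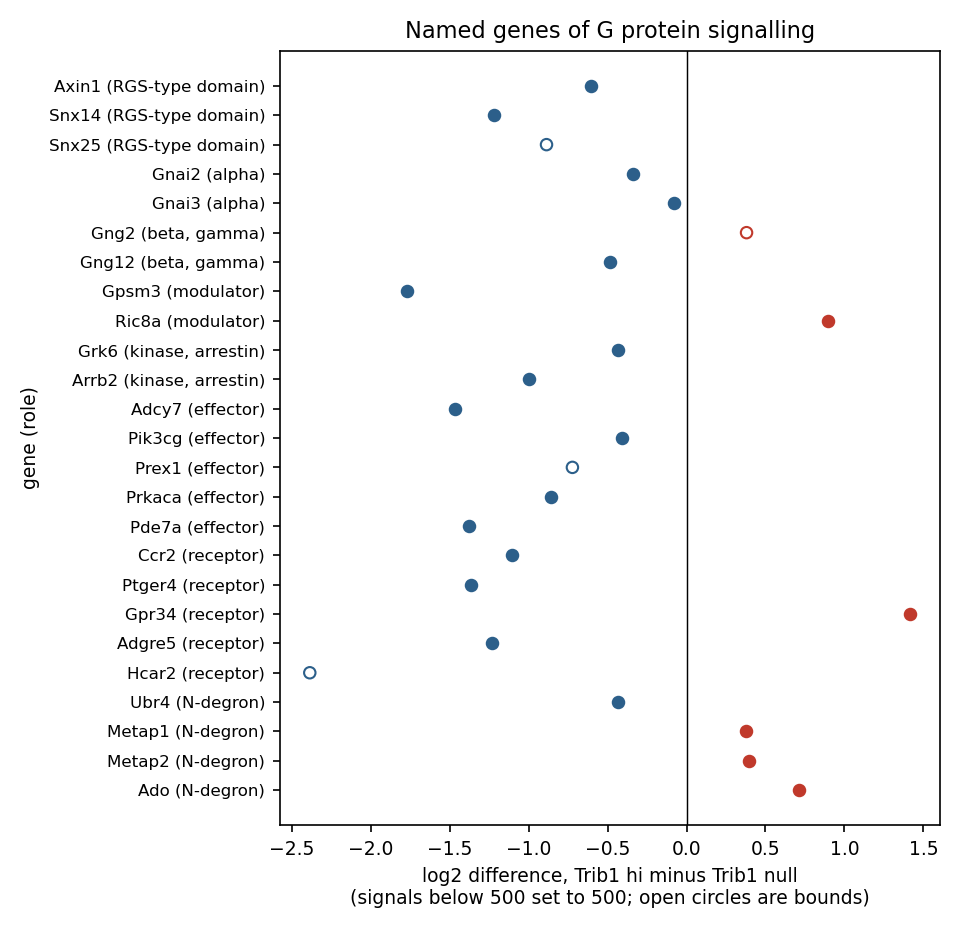
Log2 difference between the arrays labelled Trib1 hi and Trib1 null (4 each) for genes of G protein signalling outside the 8 members, after signals below 500 were set to 500. The genes are those named by the fixed rule, N-degron enzymes included. Other RGS proteins and genes named outside the rule are not drawn. Filled circles are measured on both sides and open circles are bounds. Gpsm3, Adcy7, Pde7a and Hcar2 lie far to the left, and Gpr34 and Ric8a to the right.

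Rgs4, Rgs5 and Rgs16 proteins are degraded through the N-degron pathway, in which a methionine aminopeptidase exposes an N-terminal cysteine that is then oxidised and arginylated. Of 6 tested enzymes of that pathway, 3 rose and 1 fell in the arrays labelled Trib1 hi. That is 66.7% called against 30.8% of all tested genes. With quantile normalization 4 rose and 0 fell. Ado, the thiol dioxygenase that oxidises such cysteines, rose 1.64-fold (1389 ± 26.9 against 849 ± 32.6, adjusted p = 1.19e-05), the aminopeptidase Metap2 1.31-fold (adjusted p = 0.00336) and its relative Metap1 1.30-fold (adjusted p = 0.00185). These 3 calls were lost on the average over probe sets (0.613, 0.243 and 0.728), where Metap1 also changed sign, and those of Metap2 and Metap1 ended without a variance trend (0.0894 and 0.0594). Ubr4, a ligase that recognises such ends, read 733 ± 128 against 983 ± 107 (adjusted p = 0.0275). That call was lost without any of Trib1 hi 1, 2 or 4 (0.128, 0.0673 and 0.0590) or Trib1 null 1 (0.132). Quantile normalization (0.0586), a floor of 500 (0.0860) and no filter (0.0580) also ended it. So did the average over probe sets (0.0882) and no variance trend (0.107). The arrays measure RNA, and the amount of RGS protein was not measured.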

How the data were processed

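Total RNA of 8 samples was hybridised to Affymetrix mouse arrays, 1 array per sample. The authors deposited 45141 probe-set values per array on a linear intensity scale, made with MAS5 per the submitters' processing notes; the sources used here name no version or settings. The number of arrays limits the precision, and dim signals follow the array. Groups came from the sample titles.

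Of the probe sets, 28898 carried exactly 1 symbol in the platform annotation, for 17097 genes. Values were tested as log2(intensity + 2.71), 2.71 being the 25th percentile of all values, in 12250 genes whose mean exceeded 3.01, the 40th percentile of all probe sets. limma 3.58.1 in R 4.3.3 (lmFit, eBayes with a mean-variance trend; tested on simulated data) compared the 4 and 4 arrays, two-sided, with Benjamini-Hochberg adjustment over all genes and a threshold of 0.05; every adjusted p comes from it. No p is given for the 8 members. Folds used a floor of 500.

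The members and lists were chosen with earlier results of these data known. The text names all members, the other tested RGS genes, up to 5 genes per list, ranked by size of change, that passed the threshold without overlap and exceeded 500 on all arrays of a group (else the 2 brightest), and up to 8 such neighbours. Genes outside that rule were named after their values were seen. They are Gna14, Gpsm2, Grk5 and Arrb1, which complete small counts, Gnas, S1pr4, and the single markers other than Ptprc and Spi1. Adcy9, Plcb2, Pde4b, Cxcr2, S1pr2, Ptger2, P2ry14 and F2r, named for their low signals, are also among them. Gene order and promoters came from RefSeq tables of GRCm38.p6, used for names, order and promoter windows only. Alternatives were quantile normalization, scaling to the 90th percentile, a floor of 500, a pseudocount of 50, no filter, the mean of probe sets, no variance trend, the replicate number as a block and leaving out each array; folds without a floor were added after seeing the data. 1 gene counted among those with an RGS-type domain is not reported here.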

Additional observations from a re-analysis of the deposited data

Results flagged for a closer look

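Of 24 groups of 4 readings of the RGS probe sets (the 8 used and 4 more that exceeded 500 on some array), 6 held an array far from the other 3. A chance rate of about 1 in 20 holds for independent groups. These groups share the same arrays, so nothing is read from that rate. Of these 6, 5 were on Trib1 hi 3. There Rgs1 (148), Rgs3 (218) and Rgs10 (238) were far above the other arrays labelled Trib1 hi, and Rgs5 (2715) and the second probe set of Rgs18 (6189) below them. Rgs3 on Trib1 null 1 (41.4) lay above the other arrays labelled Trib1 null.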

How the results depend on the processing

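The floored log2 differences of Rgs14, Rgs18 and Rgs19 moved by less than the spread between arrays under quantile normalization, scaling to the 90th percentile, other low-end settings and the mean of probe sets. For Rgs5 the main value of 2.66 became 8.91 without a floor, 5.89 with a pseudocount of 50 and no floor, and 0.69 with the mean of probe sets; for Rgs2 the main value of -1.81 became -2.36, -2.21 and -1.01. Leaving out each array in turn gave 2.63 to 2.73 for Rgs5, -1.95 to -1.76 for Rgs2, -1.12 to -0.85 for Rgs14, 0.37 to 0.53 for Rgs18 and -0.15 to -0.02 for Rgs19. Over all genes, 1363 were higher and 2409 lower; quantile normalization gave 3354 higher, the mean of probe sets 711 and 1285, a floor of 500 gave 1595 lower and no variance trend 1274 lower, and leaving out arrays gave 1153 to 2103 higher and 1964 to 3768 lower, both highest without Trib1 hi 3. For the signalling lists (12 higher, 31 lower), quantile normalization gave 25 higher and the mean of probe sets 7 and 20, with 11 to 18 higher and 25 to 41 lower when arrays were left out. For the neighbouring genes (3 higher, 10 lower), quantile normalization gave 6 higher, the mean of probe sets 0 and 4, a floor of 500 gave 5 lower and no variance trend 3 lower, with 2 to 7 higher and 6 to 12 lower when arrays were left out. Metap1 changed sign with the mean of probe sets (-0.24). The cause was not tested. The sample titles do not say what arrays of the same number share. Deviations of such arrays from their group means correlated at -0.51, 0.49, -0.29 and 0.37. With the replicate number as a block, 1284 of all genes were higher and 2346 lower, 12 and 28 of the signalling lists, and 2 and 9 of the neighbours; Gnai2 (0.0508) and Mcmbp (0.0771) passed the threshold no longer. Signals below 500 set the limit for Rgs1, Rgs3 and Rgs10.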
